A study of Mus musculus with 3 samples.

Results

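Keratinocytes are the epithelial cells of the epidermis and its hair follicles, and 148 cells of the tendon injury library carried their transcripts. Members were chosen by a rule on unique molecular identifiers (UMIs, each the tag of 1 captured transcript end). A cell had to hold at least 200 genes and at most 20% mitochondrial UMIs, Krt14 plus Krt5 had to make up at least 1% of its UMIs, and Ptprc, the gene of the leukocyte antigen CD45, and Pdgfra, a fibroblast receptor gene, had to be at 0. The 148 cells were 2.97% of the 4978 tendon cells kept (95% Clopper-Pearson interval 2.52 to 3.48%), 8.51% of the 1739 kept tendon cells without a Ptprc UMI (7.24 to 9.92%), and part of 9002 cells kept over the whole series. They held 7.44% of the kept tendon UMIs. Since the rule reads Krt14, Krt5, Ptprc and Pdgfra, values of those genes describe the choice and are no finding.

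The samples came from male C57BL/6J mice without a transgene, 10 weeks old, in which a burn on the back was combined with a complete transection of the Achilles tendon, a model of heterotopic ossification. Cells were taken on day 3 after surgery from 3 sites, the tendon injury, blood and bone marrow, with 1 library each. All 3 sites carried the same burn and tenotomy, so an uninjured skin or tendon does not enter here. The tendon tissue was reached through a skin incision that was then sutured, and was minced and digested with collagenases and Dispase, while blood and marrow were processed as suspensions. How many mice went into a library was not found in the labels or methods. With 1 library per site and cells that are not replicates of an animal, no p-value is given, and the intervals cover counting error alone.

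The library of the tendon injury held 5629 barcodes and 90621052 UMIs, of which 4978 barcodes and 88953383 UMIs passed the cell filter. The keratinocyte-like cells were deeply covered, with 767 UMIs in the shallowest, a median of 41691 and 135511 in the deepest, and a median of 5089 genes. The other 4830 tendon cells had a median of 12059 UMIs. The 440 fibroblast-like cells (at least 1 Pdgfra UMI, no Ptprc, and Col1a1 plus Col1a2 at 0.5% or more) had 35119. The 268 endothelial-like cells (Pecam1 and Cdh5 each with a UMI, no Ptprc or Pdgfra) had 20928. The 3148 Ptprc-positive cells (at least 1 Ptprc UMI, no Pdgfra) had 11121. The fibroblast-like, endothelial-like and Ptprc-positive cells also had to hold Krt14 plus Krt5 under 1% of UMIs. With the 1739 cells without a Ptprc UMI, the Ptprc-positive cells therefore do not make up all 4978 kept cells. Cells with a Ptprc UMI that broke either limit are left out of that group. The mitochondrial share was alike, at a median of 3.81% in keratinocyte-like and 3.57% in other tendon cells. Blood and bone marrow, with 2184 and 1840 cells kept, held 0 UMIs of Krt14 and Krt5 in those cells, which allows up to 0.137% and 0.163% of cells with such a UMI. The tendon library shared 6 barcodes with blood and 1 with marrow, and blood and marrow shared 2. Of these, 1 belonged to a keratinocyte-like cell, and without the shared barcodes the share of tendon cells was 2.96%.

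Krt14 plus Krt5 ranged from 1.03% to 5.55% of UMIs among the members, with a median of 2.26%. The members nearest the threshold were at 1.03, 1.07 and 1.10%, and the cells just below it, with no Ptprc or Pdgfra UMI, at 0.933, 0.926 and 0.883%. These were among 16 cells between 0.5 and 1%. A further 14 cells passed on keratin but held Ptprc or Pdgfra UMIs, 7 of them a single UMI. These 14 cells held 63.2% of the Krt14 UMIs of the other tendon cells. With them counted as members, the log2 ratio of Sfn to the other tendon cells was 7.34 in place of 6.30, and that of Dsp 6.48 in place of 5.74. Against only the tendon cells with no Krt14 and no Krt5 UMI, the ratios were 9.18 for Sfn and 9.55 for Dsp.

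The epidermis renews itself from a basal layer, in which keratinocytes express Krt14 and Krt5, divide, and hold to the basement membrane through hemidesmosomes. Cells that leave this layer switch to Krt1 and Krt10, strengthen their desmosomes, and finally build the cornified envelope from proteins such as loricrin, involucrin and the small proline-rich (SPRR) proteins. At a wound edge keratinocytes are known to switch on Krt6, Krt16 and Krt17, to release ligands of the epidermal growth factor (EGF) receptor, and to migrate and proliferate.

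The label was checked on marker genes that the rule did not use, in CPM (the UMIs of a gene, summed over the cells and divided by all their UMIs, times 1000000). Sfn (stratifin, a cell cycle and differentiation regulator of stratified epithelia) had a UMI in 148 of 148 cells and stood at 4997 CPM (Poisson 95% interval 4943 to 5051, from 33050 UMIs), against 4.45 CPM in fibroblast-like, 9.46 in endothelial-like and 23.5 in Ptprc-positive cells. Krt6a stood at 4294 CPM against 4.45, 10.5 and 14.5 in the same order. Krt16 stood at 3725 CPM against 3.21, 3.36 and 12.2, and Krt17 at 2680 against 2.26, 1.49 and 10.3. Each of these genes was over 100 times higher in keratinocyte-like cells than in any of the other 3 groups, and the intervals did not meet. Those 3 groups were held to under 1% Krt14 plus Krt5, so these gaps are in part set by the choice. Over all other tendon cells, which have no such limit, Sfn was at 63.5, Krt6a at 45.3, Krt16 at 33.8 and Krt17 at 41.0 CPM.

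**Figure D1:**
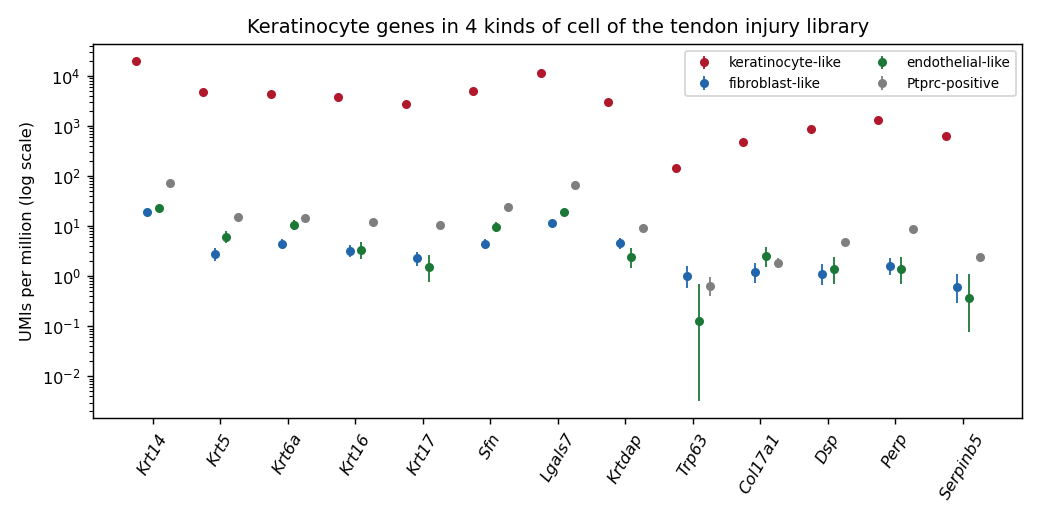
CPM (log axis) of 13 keratinocyte genes in the keratinocyte-like, fibroblast-like, endothelial-like and Ptprc-positive cells of the tendon injury library. Points are sums over the cells of a group and bars are Poisson 95% intervals of the count. Trp63, the least abundant of the genes shown, was at 144 CPM in keratinocyte-like cells and at 1.01 CPM or less in the others.

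Low keratin levels in the other groups set the background. A Krt14 UMI was found in 42.7% of the fibroblast-like cells at full depth and in 1.14% of them once every cell was thinned to 1000 UMIs at random, against 100% of keratinocyte-like cells both ways. Over the 4753 kept cells with under 0.1% Krt14 plus Krt5, Krt14 was at 23.8 CPM. Markers of leukocytes, fibroblasts and endothelial cells were low in the keratinocyte-like cells. The 6 leukocyte markers summed to 61.7 CPM with Lyz2 the most abundant, close to the 55.6 CPM of fibroblast-like cells and far under the 18100 CPM of Ptprc-positive cells. The 5 fibroblast markers summed to 35.1 CPM, led by Col3a1, against 26002 CPM in fibroblast-like cells, and the 5 endothelial markers to 13.0 CPM, led by Egfl7, against 3113 CPM in endothelial-like cells, with Kdr at 0 UMIs. Collagen and Pdgfra UMIs chose the fibroblast-like cells, Ptprc UMIs the Ptprc-positive cells, and Pecam1 and Cdh5 UMIs the endothelial-like cells. Those high sums are thus in part set by the choice. The keratinocyte-like cells had to be at 0 for Ptprc and Pdgfra. Their low leukocyte and fibroblast sums are therefore also in part set by the rule. Of the melanocyte markers Dct and Tyr were at 0, of the Merkel cell markers Krt20 and Atoh1 were at 0 while Krt18 and Krt8 had 69 and 18 UMIs, and of the T cell markers Cd3e was at 0 while Cd3d and Cd3g had 1 UMI each. The Merkel cell list summed to 13.2 CPM against 1.36 CPM in the other tendon cells, and the part of Merkel cells in this was not tested. The Langerhans cell marker Cd207 had 1 UMI, and 212 of the 217 CPM of the Langerhans and dendritic list were Epcam, which keratinocytes share. Mural cell markers summed to 37.5 CPM, led by Acta2, against 691 CPM in the other tendon cells, and Schwann cell, skeletal muscle and erythroid markers to 3.02, 0.151 and 0.151 CPM against 133, 48.8 and 52.1 CPM.

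Keratins made up 3.76% of the UMIs of the keratinocyte-like cells, and 0.0502% of those of the other tendon cells. Of 51 keratin genes in the files 28 had a UMI and 12 had at least 100. The main type II keratin Krt5 lies at chr15:101707070-101712898 on the minus strand (GRCm38, the build named mm10 in the submitters' notes), next to Krt6a (chr15:101689910-101694307) and Krt6b (chr15:101676023-101680287). Its type I partner Krt14 lies at chr11:100203162-100207548, also on the minus strand, close to Krt16 (chr11:100246091-100248902), Krt17 (chr11:100256217-100261029) and Krt15 (chr11:100131758-100135928). Krt6a and Krt6b, and likewise Krt14, Krt16, Krt17 and Krt42, are close in sequence, so how reads were divided among them is uncertain.

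Krt14, at 19606 CPM in sum, ran from 5519 to 45137 CPM per cell with a median of 17949, and Krt5, at 4831 CPM in sum, had a median of 4881 CPM and a UMI in 141 cells. The rule bounds the sum of both from below, so their spread is not set against that of other genes. Krt6a had a UMI in 142 cells and a median of 2810 CPM, and reached 18346 CPM in the highest cell. Krt16 had a UMI in 125 cells, but its median was 292 CPM and its highest value 31659 CPM. Krt17 had a median of 1552 CPM. Without uninjured skin, a change of Krt6a, Krt16 and Krt17 with the wound was not tested. Krt6b and Krt15 each had a UMI in 57 cells, with medians of 0 and maxima of 10302 and 20278 CPM, and Krt79 had one in 35 cells with a maximum of 26045 CPM. The suprabasal keratins were low. Krt10 had a median of 21.8 CPM and Krt1 a UMI in 16 of the 148 cells, at 50.8 CPM in sum, of which 1 cell held 36.9%.

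**Figure D2:**
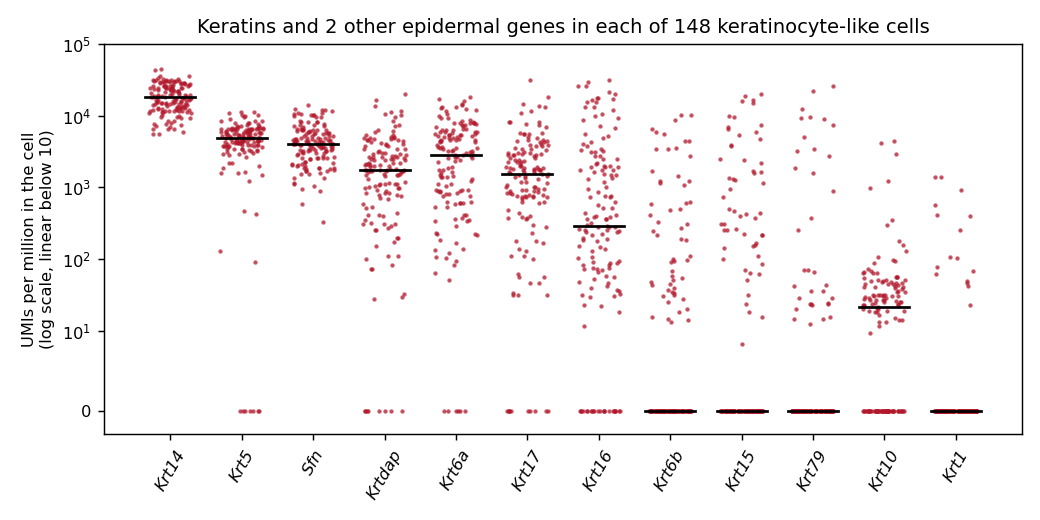
CPM of 10 keratins, Sfn and Krtdap in each of the 148 keratinocyte-like cells (1 point per cell, log axis that is linear below 10), with black lines at the medians. Krt16 spans from 0 to 31659 CPM and the medians of Krt6b, Krt15, Krt79 and Krt1 are at 0, while the sum of Krt14 and Krt5 is bounded from below by how the cells were chosen.

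Regulatory sequence in front of some of these genes is shown to set basal beside suprabasal and wound-associated genes. RefSeq promoter entries (GRCm38.p6) were at hand for Krt5, Krtdap and Sprr1b, and not for Krt6a, Krt6b, Krt16, Krt17 and Krt15. The entry of Krt14 belongs to a transcript that starts inside the gene, so it is not shown. The lines give 120 bases before a RefSeq transcript start of each gene, 5′ to 3′ on the strand of the gene, at chr15:101712906-101713025 for Krt5 (minus strand), chr7:30787785-30787904 for Krtdap (plus strand) and chr3:92438780-92438899 for Sprr1b (minus strand). Capitals mark the letters TATAAA, the core of a TATA box, and TGANTCA, a form of the site bound by AP-1 (FOS and JUN) dimers, searched on both strands.
Krt5: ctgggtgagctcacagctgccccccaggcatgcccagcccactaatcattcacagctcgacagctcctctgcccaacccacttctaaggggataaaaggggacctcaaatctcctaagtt
Krtdap: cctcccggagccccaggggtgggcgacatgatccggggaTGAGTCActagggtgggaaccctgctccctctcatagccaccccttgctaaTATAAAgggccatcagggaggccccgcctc
Sprr1b: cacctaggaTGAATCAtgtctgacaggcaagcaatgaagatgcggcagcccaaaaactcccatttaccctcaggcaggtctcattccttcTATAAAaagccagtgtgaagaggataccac

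Krtdap and Sprr1b both held TATAAA with its first base at -30 from the start, and TGANTCA with its first base at -81 and -111. The window of Krt5 held neither exact string of letters. At a like distance from the start it reads gataaa, which differs from TATAAA in the first letter and was not searched for. Over the 250 bases before the start, TATAAA occurred in 12.4% and TGANTCA in 6.75% of all 32851 promoters of the table, and in 14.3% and 7.82% of its 27025 genes. Among the wound-activated genes with an entry, 9 of 12 held TATAAA and 7 of 12 held TGANTCA, namely Mmp10, Mmp13, Plaur, Sprr1a, Sprr1b, Sprr2d and Sprr2h. Among the suprabasal genes with an entry TATAAA occurred in 2 of 7, Krt10 and Krtdap, and TGANTCA in 3 of 7, Dmkn, Krtdap and Sbsn. Among the basal genes with an entry both occurred in 0 of 4. How many of these entries start inside a gene was not counted. A match of letters is a description and no evidence of binding.

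Against the other tendon cells, 542 of 12750 genes with at least 100 UMIs were at least 4-fold higher in keratinocyte-like cells (4.25%) and 2685 were at least 4-fold lower (21.1%), with a median log2 ratio of -0.30 over all genes tested. Against fibroblast-like cells 533 of 9854 genes were 4-fold higher (5.41%) and 1382 lower (14.0%), and against endothelial-like cells 507 of 8772 were higher (5.78%) and 1124 lower (12.8%). The 3 comparisons share the keratinocyte-like cells, and fibroblast-like and endothelial-like cells are part of the other tendon cells. Ratios are of sums over cells, so the higher number of UMIs per keratinocyte-like cell is divided out. A gene that reached 100 UMIs through the keratinocyte-like cells alone had to come out higher. Counts and medians of list members below therefore describe those that passed and support nothing further.

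Genes that tie keratinocytes to each other were high. Of 11 desmosome genes 11 were at least 4-fold higher than in other tendon cells, with a median log2 ratio of 5.74. Dsp, whose product desmoplakin links desmosomes to keratin filaments, was at 859 CPM with a UMI in every cell, against 1.13 CPM in fibroblast-like cells. Perp, a desmosomal membrane protein of stratified epithelia, was at 1318 CPM against 1.60. Among the desmosomal cadherins Dsc3 and Dsg3 of the lower layers stood at 396 and 119 CPM with UMIs in 98.6% and 89.2% of cells, whereas Dsg1a and Dsc1 of the upper layers stood at 41.1 and 12.7 CPM with UMIs in 27.7% and 12.2% of cells. Of the 8 genes of adherens, tight and gap junctions 7 were 4-fold higher than in other tendon cells, among them Epcam (212 CPM against 0.119 in fibroblast-like cells) and the connexin Gjb2 (306 against 0.712). The connexin Gja1, also used by fibroblasts, was the exception, at 222 CPM in keratinocyte-like, 187 in fibroblast-like and 180 in endothelial-like cells.

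Basal layer genes were as uniform. Of 10 genes 10 were at least 4-fold higher than in other tendon cells, with a median log2 ratio of 5.50. The ratio of Krt15 was 4.77, and 1.27 at a keratin threshold of 2%. Trp63, the transcription factor gene on which stratified epithelium depends, had a UMI in 139 cells and was at 144 CPM against 1.01 CPM in fibroblast-like cells, a log2 ratio of 7.16 (95% interval 6.47 to 7.94). Lgals7 (galectin 7) was at 11113 CPM against 11.3. Of 11 hemidesmosome and basement membrane genes 7 were 4-fold higher and 0 lower. Col17a1, which anchors hemidesmosomes, was at 471 CPM against 1.19 in fibroblast-like cells, and Itga6 and Itgb4, which form the hemidesmosomal integrin, were at 456 and 219 CPM against 7.18 and 1.66. Itgb1, Plec, Dst and Cd151 stayed within 4-fold, and Itgb1 was at 341 CPM in keratinocyte-like and 345 CPM in fibroblast-like cells.

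In level (CPM), though not in ratio to other cells, early differentiation genes were high and late ones low. Of 11 suprabasal genes tested 10 were 4-fold higher than in other tendon cells, with a median log2 ratio of 5.21. Most of their UMIs came from Krtdap (3026 CPM, in 140 cells), Dmkn (2452 CPM, in 148 cells) and Ly6d (2351 CPM, in 77.0% of cells), genes of the lower suprabasal cells, against 4.51, 5.70 and 2.02 CPM in fibroblast-like cells. Krt2 had 0 UMIs. Genes of the cornified layer were low, with 433 CPM over 12 genes, of which Sprr1a alone gave 269. Flg and Flg2, the filaggrin genes, had 0 UMIs, which allows up to 0.454 CPM, and Lor (loricrin) had 19 UMIs, 2.87 CPM. Of the 12 cornified genes 7 reached 100 UMIs, and Ivl, Tgm3, Klk7, Cnfn and Sprr1a did so mostly through the keratinocyte-like cells, so no count over them is read. For several of them 1 cell held much of the count: 63.9% of the Cnfn, 50.4% of the Klk7, 36.8% of the Tgm3 and 30.5% of the Ivl UMIs.

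**Figure D3:**
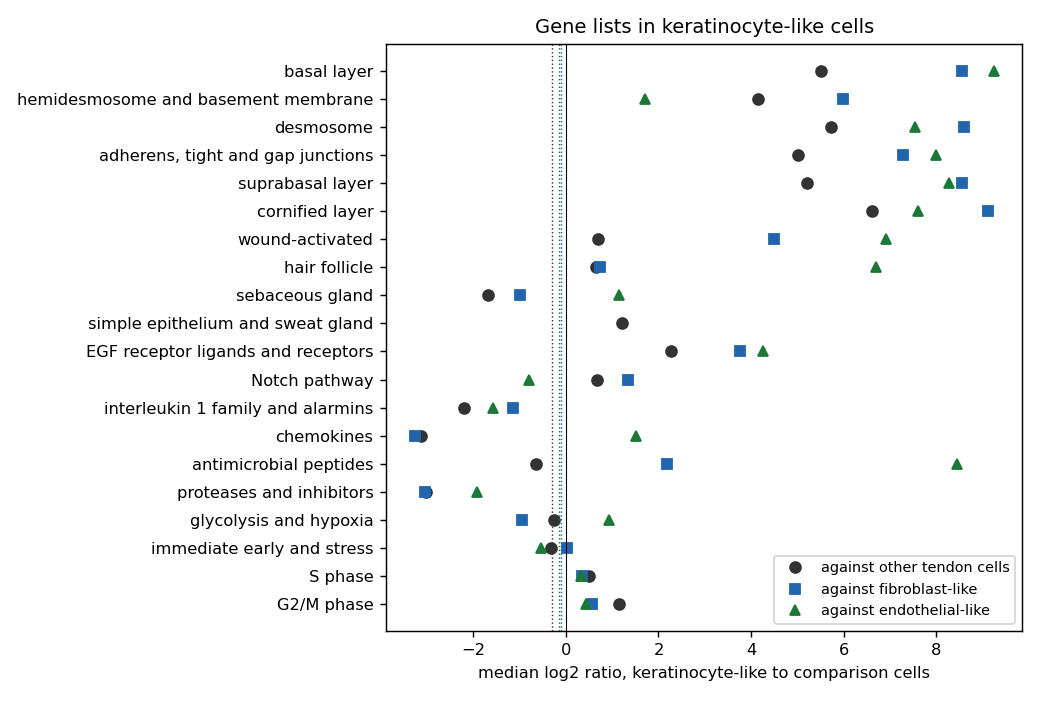
Median log2 ratio of keratinocyte-like cells to the other tendon cells (circles), fibroblast-like cells (squares) and endothelial-like cells (triangles) for 20 gene lists, each point shown where at least 3 genes of the list had 100 UMIs or more. Dotted lines are the medians over all genes tested, -0.30, -0.11 and -0.14. Adhesion, basal and suprabasal lists lie on the right, chemokines and proteases on the left against fibroblast-like and other tendon cells. The place of the cornified list is not read, since several of its genes reached 100 UMIs mostly through the keratinocyte-like cells.

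The wound-activated list split in its parts against other tendon cells, where 9 of 20 genes tested were 4-fold higher and 8 were lower, with a median log2 ratio of 0.69. Against fibroblast-like cells 11 of 19 were higher and 5 lower, with a median of 4.50, and against endothelial-like cells 12 of 17 were higher and 2 lower, with a median of 6.91. The 9 higher than in other tendon cells were the keratins Krt6a, Krt6b, Krt16 and Krt17, the SPRR genes Sprr1a, Sprr1b, Sprr2d and Sprr2h, and Il24, a cytokine of the interleukin 10 family, which was at 124 CPM against 1.31 in the other tendon cells. Keratinocyte-like cells held 88.4% of all Il24 UMIs of the tendon library. Sprr1b was at 709 CPM against 5.95, with a UMI in 70 cells, a median of 0 and a highest cell of 12816 CPM. Other members of the list were lower. Mmp9, Mmp13, Plaur (the urokinase receptor) and Itga5 (the fibronectin receptor chain) were at 1.97, 1.97, 12.7 and 10.3 CPM, against 86.4, 14.3, 149 and 83.0 CPM in the other tendon cells, and were 4-fold lower. Plau (urokinase) was at 8.77 against 31.5 CPM, and Mmp10 had 15 UMIs. The other genes past 4-fold lower were S100a8, S100a9, Tnc and Inhba. Members of the SPRR family are close in sequence and may share reads.

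S100a8 and S100a9, the calprotectin genes, belong both to wounded epidermis and to neutrophils. They were at 282 and 406 CPM in keratinocyte-like cells, 18.5 and 17.9 in fibroblast-like, 18.8 and 16.6 in endothelial-like, and 5302 and 6407 in Ptprc-positive cells. S100a8 had a UMI in 70.3% of keratinocyte-like and 48.6% of fibroblast-like cells at full depth, and in 10.9% (6.35 to 17.1%) and 1.59% (0.643 to 3.26%) after thinning to 1000 UMIs. The highest cell held 22.1% of the S100a8 UMIs, and without it the level was 222 CPM. The other neutrophil markers were at 8.16 CPM for Retnlg, 3.02 for Cxcr2 and 1.06 for Csf3r, and 3.03, 0.119 and 0.356 CPM in fibroblast-like cells. The part of neutrophil RNA in the S100a8 and S100a9 values was not tested.

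Several ligands of the EGF receptor were high. Of 9 ligand and receptor genes 5 were 4-fold higher than in other tendon cells, with a median log2 ratio of 2.27. Areg (amphiregulin) was at 263 CPM against 1.78 in fibroblast-like cells, and keratinocyte-like cells, 7.44% of the UMIs, held 57.8% of all Areg UMIs of the tendon library. Epgn (epigen) was at 109 CPM, with 83.3% of its UMIs in these cells, and Tgfa at 42.2 CPM with 66.3%. The log2 ratios to other tendon cells were 4.09 for Areg (95% interval 3.99 to 4.20), 5.96 for Epgn (5.70 to 6.23) and 4.61 for Tgfa (4.32 to 4.91). Hbegf was found elsewhere too, at 132 CPM against 83.7 in fibroblast-like and 250 in endothelial-like cells, and Ereg was lower, at 12.2 against 76.8 CPM in fibroblast-like cells. Of the receptors, Erbb3 and Erbb2 were at 32.2 and 18.7 CPM with log2 ratios to other tendon cells of 3.44 and 2.27, and Egfr was at 31.0 CPM against 111 in fibroblast-like cells. Of 8 Notch pathway genes 1, the ligand Jag2, was 4-fold higher than in other tendon cells (22.1 against 2.74 CPM) and 1, the target Hey1, lower.

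Most interleukin 1 and chemokine genes were low beside the other tendon cells. Of 10 interleukin 1 family genes and alarmins tested 0 were 4-fold higher and 6 lower than in other tendon cells, with a median log2 ratio of -2.20. Il1a, which epidermis stores as an alarm signal, had 10 UMIs in 5 cells, 1.51 CPM against 29.7 in the other tendon cells, and Il1b was at 8.92 against 545 CPM. The other tendon cells were mostly Ptprc-positive, 3148 of 4830, and the members were chosen to lack Ptprc. With no requirement on Ptprc and Pdgfra, the log2 ratio of Il1b was -4.05 in place of -5.93. That of Il1a was then -3.69 in place of -4.30. Il33, a nuclear alarmin, was at 58.4 CPM against 51.4. The interleukin 36 genes Il1f6, Il1f8 and Il1f9 had 1, 8 and 41 UMIs. Of 12 chemokine genes 1 was 4-fold higher and 7 were lower than in other tendon cells, with a median log2 ratio of -3.14. Against fibroblast-like cells 1 of 9 was higher and 6 were lower, but against endothelial-like cells 3 of 7 were higher and 2 lower, with a median of 1.51. The gene higher than in other tendon cells was Ccl27a, a chemokine of the epidermis that attracts lymphocytes, at 35.8 against 4.11 CPM. The neutrophil and monocyte attractants Cxcl1, Cxcl5, Ccl2 and Ccl7 were at 47.0, 4.23, 7.86 and 3.78 CPM, against 1407, 1663, 963 and 583 CPM in fibroblast-like cells. Cxcl2 was at 54.7 CPM, of which 1 cell held 56.9%. Cxcl14, a chemokine of resting epithelia, was the most abundant at 388 CPM, and was at 3709 CPM in fibroblast-like cells.

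Among secreted defence and protease genes, the intracellular serpins stood apart from the matrix proteases. Serpinb5 (maspin) was at 617 CPM with a UMI in 99.3% of cells against 0.594 CPM in fibroblast-like cells, and Serpinb2 (plasminogen activator inhibitor type 2) at 140 against 1.19. These were the 2 genes of 12 tested that were 4-fold higher than in other tendon cells, and 7 were lower. Mmp3, Timp1 and Timp2 were at 18.7, 18.3 and 25.6 CPM, against 960, 3674 and 483 CPM in fibroblast-like cells. Of 6 antimicrobial genes tested 2 were 4-fold higher and 2, Camp and Ltf, lower than in other tendon cells, with a median log2 ratio of -0.64. The higher ones, the defensin genes Defb1 and Defb6, were at 114 and 472 CPM, against 0.119 and 0.297 CPM in fibroblast-like cells. Against fibroblast-like cells 3 of 5 antimicrobial genes tested were 4-fold higher and 1 lower, with a median of 2.18. Against endothelial-like cells 3 of 4 were higher and 0 lower, with a median of 8.44. Defb1 had a UMI in 56.1% of cells, whereas 1 cell held 47.6% of the Defb6 UMIs. The log2 ratio of Defb6 to the other tendon cells was 5.68, and -3.83 at a keratin threshold of 2%, which passes those cells to the other side.

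Metabolic and early response genes stayed mostly within 4-fold. Of 12 glycolysis and hypoxia genes 1 was 4-fold higher than in other tendon cells, Slc2a1, which encodes the glucose transporter GLUT1, at 161 CPM against 37.5 in other, 26.5 in fibroblast-like and 31.9 in endothelial-like cells (log2 ratio to other tendon cells 2.10, and 1.96 with cells weighted equally). Ldha was at 1117 CPM against 534 in the other tendon cells, while Hilpda and Pfkfb3 were the 2 lower genes of the list. Of 14 immediate early and stress genes 0 were past 4-fold in either direction against any of the 3 groups. Fos was at 939 CPM in keratinocyte-like and 915 CPM in other tendon cells, a log2 ratio of 0.04 that turned to -0.059 against cells without keratin UMIs, to -0.16 with every cell weighted alike and to -0.59 at a keratin threshold of 2%.

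Transcripts of dividing cells were frequent. Of 10 genes of the G2 and M phases, each was higher than in the other tendon cells, but none by 4-fold, with a median log2 ratio of 1.16 (Ube2c was at 1.25, and at 2.15 with cells weighted equally), and the list summed to 1310 CPM against 878 in fibroblast-like, 1008 in endothelial-like and 252 in Ptprc-positive cells. Ube2c and Top2a, which act in chromosome segregation, were at 208 and 203 CPM. After thinning each cell to 1000 UMIs, 46.3% (38.0 to 54.7%) of 147 keratinocyte-like cells held a UMI of these genes, against 29.2% (24.9 to 33.7%) of fibroblast-like, 20.6% (15.9 to 26.0%) of endothelial-like and 7.07% (6.19 to 8.02%) of Ptprc-positive cells. Averaged over all possible draws the shares were 48.1, 28.0, 23.4 and 6.75%, and without thinning 91.2, 64.3, 58.2 and 31.2%. For 10 S phase genes the thinned shares were 42.9% (34.7 to 51.3%) against 30.8% (26.5 to 35.3%), 25.5% and 13.4%, and averaged over draws 40.5, 27.7, 29.1 and 13.3%. The G2 and M transcripts were uneven among keratinocyte-like cells, with 13 cells at 0, a median of 753 CPM and 74.6% of the UMIs in the upper 37 cells.

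**Figure D4:**
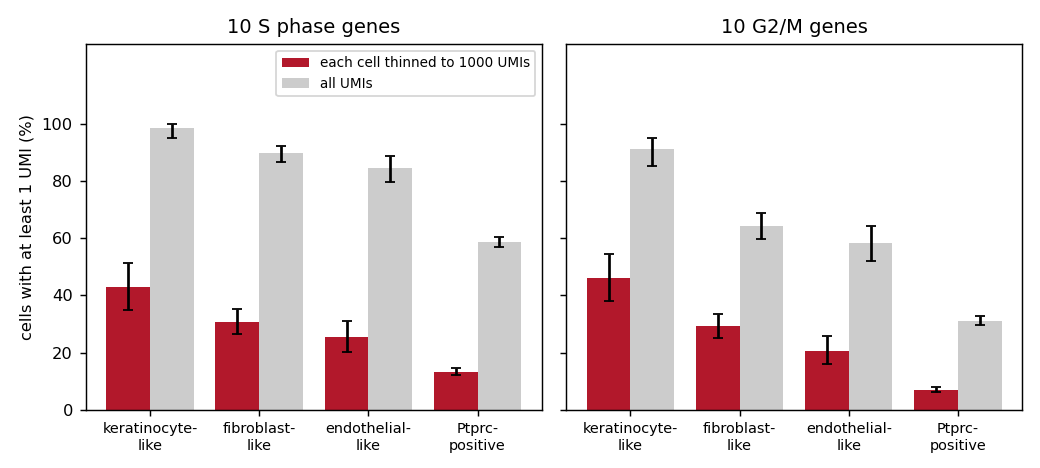
Share of cells with at least 1 UMI of 10 S phase genes (left) or 10 genes of the G2 and M phases (right) in 4 groups of tendon cells, with each cell thinned to 1000 UMIs (red) and with all UMIs (grey). Bars start at 0 and error bars are 95% Clopper-Pearson intervals. The thinned keratinocyte-like share for G2 and M, 46.3%, lies above the interval of each other group.

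Among the members, Krt6a, Krt6b and Krt16 together made up at least 0.5% of UMIs in 60 of 148 cells (40.5%, 32.6 to 48.9%). The sum was graded, with 57 cells between 0.25 and 1%, so this is a range and not a cell type. Median depth was similar inside and outside it, at 44307 and 39433 UMIs. Inside the range 54 of 5613 genes with at least 100 UMIs were 4-fold higher (0.962%) and 31 were 4-fold lower (0.552%), with a median log2 ratio of -0.12. Among genes with a UMI in at least 25% of the cells of the higher side, the highest ratios belonged to the SPRR genes Sprr2h (248 against 3.44 CPM) and Sprr1b (1621 against 24.6), Il33 (130 against 4.50), the kallikreins Klk13 and Klk10 (71.3 against 3.18, and 230 against 24.3), Gjb2 (647 against 51.3), Pinlyp, Dsc2 (58.9 against 6.09), the sulfotransferase gene Sult2b1 and the retinoic acid binding protein gene Crabp2 (418 against 49.7). Il33 had a UMI in 38.3% of the cells inside and 11.4% outside. Of 9 suprabasal genes tested 7 had a ratio above 0 and 2 were 4-fold higher, with Ly6d at 4548 against 703 CPM and Lypd3 at 636 against 102, and the suprabasal list summed to 14886 against 4876 CPM. The EGF receptor ligand genes Epgn and Areg were less than 4-fold higher, with Epgn at 178 against 56.9 and Areg at 403 against 158 CPM.

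Outside that range stood other genes. By the same rule the lowest ratios belonged to Fgfr1, a fibroblast growth factor receptor gene (0.706 CPM inside, 28.8 outside), the aldehyde dehydrogenase gene Aldh3a1 (4.23 against 55.3), Mgp, Rgcc, Krt15 (161 against 1314), Tns3, Adh7, Adgra3, Krt79 (138 against 969) and Cntfr. Of the 10 G2 and M genes each was lower inside, none by 4-fold, and the list summed to 1053 against 1503 CPM, yet the median per cell was 756 and 753 CPM. Of 14 immediate early genes 13 were lower inside, with Fos at 539 against 1239 CPM. S100a8 was at 514 CPM inside and 109 outside, and the leukocyte markers summed to 73.7 and 52.7 CPM. The neutrophil markers summed to 1331 inside and 227 CPM outside, with 2 of 2 genes tested 4-fold higher. The mural markers summed to 68.1 and 14.6 CPM, and the 1 gene tested was 4-fold higher inside. Across the 148 cells Krt6a went with Krt16 and Sfn (Spearman's rho 0.75 and 0.78 over cells of 1 library, and 0.75 and 0.74 over 142 cells thinned to 10000 UMIs), against Krt15 (-0.54 and -0.53), and was nearly unrelated to Mki67 (0.09 both ways).

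Krt1 plus Krt10 reached 0.5% of UMIs in 1 cell of 148 (0.676%, 0.0171 to 3.71%), with a highest value of 0.559% and 3 cells between 0.25 and 1%. A range of 1 cell gives no profile, and none is described.

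2 further ranges were set after the values had been seen. Krt15, a keratin of hair follicle stem cells and of some basal cells, made up at least 0.5% of UMIs in 12 cells (8.11%, 4.26 to 13.7%), 2 of which also lay in the Krt6a, Krt6b and Krt16 range. Inside it 39 of 5615 genes were 4-fold higher (0.695%) and 166 lower (2.96%), with a median log2 ratio of 0.0094. Cxcl14 was at 3074 against 222 CPM, Cd34 at 193 against 14.6, and Lhx2, a transcription factor gene of hair follicle stem cells, at 78.3 against 13.3. Cd34 had a UMI in 83.3% of these cells and 19.1% of the other members. Of the 5 hair follicle genes tested 2 were 4-fold higher (Cd34 and Lhx2) and 2 lower (Cst6 and Krt79), and the list summed to 721 against 3635 CPM, most of the latter Cst6. Sox9 was at 363 against 111 CPM, Fst (follistatin) at 358 against 67.1 and Tnc (tenascin C) at 198 against 29.4. Of 14 wound-activated genes tested 2, Tnc and Fst, were 4-fold higher and 9 were lower, and of 9 suprabasal genes 1, Calml3, was higher and 5 were lower. Krt17 was at 3147 against 2651 CPM. Among the lower genes were Ly6d at 7.83 against 2494 CPM, Krt16 at 115 against 3947, and Krt6b and Sprr1b at 0 UMIs. Areg was at 7.83 against 279 CPM. Krt14 itself was at 9133 against 20249.9 CPM. The basal list was near balance, with a median log2 ratio of -0.08, and the G2 and M list summed to 1126 against 1322 CPM, with a median per cell of 434 against 766 CPM.

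**Figure D5:**
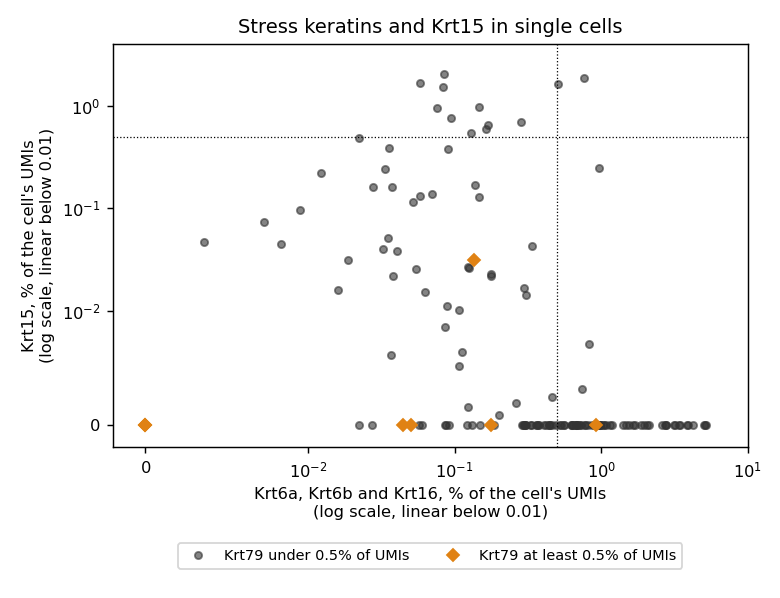
Each keratinocyte-like cell by the share of its UMIs in Krt6a, Krt6b and Krt16 (horizontal) and in Krt15 (vertical), both on log axes that are linear below 0.01%, with dotted lines at 0.5%. Diamonds are the 8 cells with Krt79 at 0.5% or more. Of the 60 cells right of the vertical line 2 lie above the horizontal one.

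Krt79, a keratin of the hair canal, made up at least 0.5% of UMIs in 8 cells (5.41%, 2.36 to 10.4%), none shared with the Krt15 range. The 8 cells gave 82 of 5615 genes 4-fold higher (1.46%) and 481 lower (8.57%), with a median log2 ratio of -0.34. Defb6 was at 11196 CPM inside and 5.68 outside, with a UMI in all 8 cells, and Cst6, the gene of the epidermal protease inhibitor cystatin E/M, at 53689 against 442 CPM. Single cells weighed heavily, since 1 of them, at 225424 CPM, held 48.1% of all Cst6 UMIs of the members. Another was at 143937 CPM, and the rest of the range were at 10520 CPM or less. Of 9 suprabasal genes tested 3 were 4-fold higher and 0 lower, of 4 cornified genes 2 were higher, and of 14 wound-activated genes 1 was higher and 7 were lower. Krt10 (860 against 70.2 CPM), Dsg1a (268 against 31.2) and Klk7 (1219 against 5.52) and the antimicrobial genes Lcn2 (910 against 83.1) and Defb1 (649 against 90.4) were higher, although Klk7 had a UMI in 4 of the 8 cells. Of 11 hemidesmosome and basement membrane genes 9 were 4-fold lower, with Col17a1 at 3.63 against 492 CPM, Itga6 at 14.5 against 475 and Itgb4 at 0 UMIs. Krt5 was at 381 against 5024 CPM, and the rule's sum of Krt14 and Krt5 was met there through Krt14. The 10 G2 and M genes were each 4-fold lower and summed to 127 against 1362 CPM. Of the 148 cells 70 lay in none of the 4 ranges, and 1 of the 8 cells also lay in the Krt6a, Krt6b and Krt16 range.

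Other hair follicle and gland genes varied. Of 9 hair follicle genes tested against other tendon cells 4 were 4-fold higher, Krt79, Lhx2, Sox9 and Cst6, and 0 lower. The log2 ratio of Krt79 was 4.47, and -3.09 at a keratin threshold of 2%, and that of Cst6 was 4.68, and 1.16 at that threshold. The hair shaft and inner root sheath keratins Krt25 and Krt73 had 0 UMIs, Krt71 had 2 and Krt27 had 1, and Shh and Fgf5, genes of the growing follicle, had 0. Lgr5 was at 5.14 CPM in 15 cells. Of 5 sebaceous gland genes tested 0 were higher and 2 lower. Mgst1, which many tissues express, had a UMI in 125 cells and was at 178 CPM against 171 in the other tendon cells, and Scd1 had one in 59 cells, whereas Elovl3 had 2 UMIs and Awat2 had 1. Krt8 and Krt18, keratins of simple epithelia, had 18 and 69 UMIs. Krt77, from the list of simple epithelium and sweat gland genes, had 146, of which 84.2% were in 1 cell. That list summed to 522 CPM inside the Krt79 range and 14.5 CPM outside it.

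The nuclear genes with the most UMIs in keratinocyte-like cells, ribosomal protein genes left aside, were Gm42418 (which overlaps ribosomal RNA sequence), Krt14, Lgals7, S100a6, Fabp5, Tpt1, Sfn, Krt5, Eef1a1 and Krt6a. Fabp5, the epidermal fatty acid binding protein, was at 8028 CPM against 182 in fibroblast-like and 1297 in Ptprc-positive cells. Ribosomal protein genes made up 27.2% of the UMIs against 19.8% in the other tendon cells. Among genes with a UMI in at least 10% of the cells, Krt14 and Krt5 left aside, the 15 highest log2 ratios to other tendon cells belonged to Krt42, Cnfn, Krt1, Sprr2a3, Dsc2, Gsdmc, Sprr1a, Phlda2, Fat2, Rbp2, Sprr1b, Abca12, Krt16, Nppb and Pak6, from 9.34 for Krt42 to 6.64 for Pak6. The atypical cadherin gene Fat2 and the kinase gene Pak6 were low but spread over cells, at 28.7 and 33.9 CPM with UMIs in 69.6% and 64.9% of them, whereas 1 cell held 44.1% of the Krt42 UMIs. Rbp2, a retinol binding protein gene, was at 134 CPM, with a UMI in 74 cells, against 1.11 CPM in the other tendon cells. Nppb, the gene of brain natriuretic peptide, was at 28.9 CPM in 18.9% of the cells. The 5 lowest ratios, from -9.69 to -9.07, belonged to Prrx1, Fcgr1, Ebf1, Meg3 and Msr1, genes of mesenchymal cells and of macrophages. Each had 1 UMI in the 148 cells, and for Prrx1 the 95% interval ran from -14.99 to -7.21. Since the rule left out cells with Ptprc or Pdgfra UMIs, low values of such genes are in part set by it. A count of 0 was set to 3 counts in a ratio, so the 738 tested genes at 0 UMIs in these cells could not rank below genes with 1 UMI at a like level elsewhere.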

How the data were processed

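The 3 deposited matrices hold UMI counts per gene and cell, which the authors obtained from Cell Ranger (version 5.0.1 in the headers of the deposited files, build mm10 per the labels) from 10x Genomics 3′ libraries, with no normalization. Cells, groups and ranges were set as described above, and counts were summed over cells and divided by the summed UMIs (CPM). Log2 ratios carry exact binomial 95% intervals, and a count of 0 was set to 3 counts in a ratio. Genes with at least 100 UMIs in both groups together were compared, and 4-fold was the size used. Shares of cells were recomputed with each cell thinned to 1000 UMIs (1 keratinocyte-like cell was too shallow). Since 1 UMI is 1 transcript end, counts are not scaled by length. No test across samples was possible, and the functions were tested on simulated data.

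The members and gene lists were chosen with earlier results of these data known. Named genes were those of the lists and markers, the 15 highest and 5 lowest ratios to other tendon cells, the 10 most abundant nuclear genes other than those of ribosomal proteins, and the 10 highest and 10 lowest ratios across the Krt6a, Krt6b and Krt16 range, with the detection minimums given above. The same rule was not used for the Krt1 and Krt10 range, which held 1 cell, and other genes given for the Krt15 and Krt79 ranges were chosen after their values were seen. The markers Trac and Trdc were not analysed here, and the values of 1 gene of the lists are not reported here. Scrublet, run through scanpy 1.11.5, scored doublets, and other steps used numpy 2.4.6, scipy 1.17.1 and pandas 2.3.3 on Python 3.11.15. Of 198 cells taken as doublets 2 were keratinocyte-like. Gene positions came from GENCODE M21 and promoters from RefSeq, both GRCm38. The cell filter, the keratin threshold, the denominators and the gene minimum were varied, as given in the closing section.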

Additional observations from a re-analysis of the deposited data

How the results depend on the processing

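With 1 library per site, counting intervals are the sole error and no replicate could be left out. No paired analysis was possible because each site has 1 library. At a keratin threshold of 2% the members were 93 cells, 1.87% of tendon cells, of which 54.8% lay in the Krt6a, Krt6b and Krt16 range, 0.00% in the Krt1 and Krt10 range, and 56.5% held a thinned G2/M UMI. Counting genes from 20 UMIs gave 830, 913 and 895 genes 4-fold higher than in other, fibroblast-like and endothelial-like cells, and 1885 lower than in endothelial-like cells. The Krt6a, Krt6b and Krt16 range held 57.4% of cells from 0.25% of UMIs and 18.9% from 1%, where the Krt1 and Krt10 range held 0.00%. The G2/M share was 61.2% at 2000 UMIs and 91.2% unthinned. The other values for the cell filter, a threshold of 0.5%, no requirement on Ptprc and Pdgfra, doublets, denominators and equal weights stayed inside the interval or within 1.5 times, as did 2 alternatives added after seeing the data, leaving out shared barcodes and averaging over draws. Of 37 gene ratios to other tendon cells 3 reversed: at the 2% threshold Krt79 was at -3.09, Defb6 at -3.83 and Fos at -0.59, and Fos was at -0.16 with equal weights and at -0.059 against cells without keratin UMIs. Of 399 such ratios under the 11 alternatives that give them 190 moved past their counting interval in the same direction, and 30 of the 37 genes shifted by over 1.5-fold under at least 1 of them. The 4-fold size was lost at the 2% threshold by Krt15 (1.27), Cst6 (1.16) and Krt10 (0.92), and with equal weights by Slc2a1 (1.96), and gained by Cxcl14 (-2.46 at 2%) and Ube2c (2.15 with equal weights). Causes were not tested, except that a higher threshold leaves out cells by construction.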
